A study of Homo sapiens with 8 samples.

Results

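The 10 keratin genes described here are KRT7, KRT8, KRT18 and KRT19, the simple keratins of glandular epithelium, and KRT5, KRT14, KRT17, KRT6A, KRT6B and KRT16, the keratins of basal and stressed stratified epithelium. They were taken by gene symbol from the deposited table, in which all 10 were found among 18164 genes. The samples are RNA from 8 tumors, each grown from 1000000 cells of HCC1937, a triple-negative human breast cancer cell line, put into the inguinal mammary fat pad of NCG mice, which lack most of their own lymphoid immunity. Treatment began at a tumor volume of 100 to 150 mm3. In 4 of them, called NMN 1 to 4, the mice received 500 mg/kg/day of nicotinamide mononucleotide (NMN), from which cells make NAD+, and in the other 4, called Vehicle 1 to 4, they received vehicle. All 8 tumors share the cell line, the site and the host strain. Whether every tumor had a mouse of its own is not said in the labels, so a p-value covers only the spread among these samples. All values are human TPM, transcripts per 1000000, which are scaled by transcript length and therefore allow levels to be set side by side between genes. No source used here says what was done with reads of the mouse host, so mouse keratin reads can be part of any value.

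Keratins are the intermediate filaments of epithelial cells, and each filament is built from pairs of an acidic type I and a basic type II keratin. KRT8 with KRT18, joined by KRT7 and KRT19, forms the filaments of luminal mammary cells, and KRT5 with KRT14 those of basal mammary cells and basal keratinocytes. KRT6A, KRT6B, KRT16 and KRT17 are induced in wounded, hyperproliferative or otherwise stressed stratified epithelium. Basal-like breast cancers are known for expressing KRT5, KRT14 and KRT17, often together with simple keratins.

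The end of the helical rod, the most conserved part of a keratin, shows how the 2 types differ and how alike neighboring members are. The 48 coding bases of 8 members below were read from GENCODE 29 transcripts on GRCh38 and run 5′ to 3′ on the coding strand. Capitals mark the 3 positions at which all 5 type I members carry 1 base and all 5 type II members another. The first 5 lines are type I and the last 3 type II.
KRT18: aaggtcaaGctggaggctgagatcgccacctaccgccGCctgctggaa
KRT19: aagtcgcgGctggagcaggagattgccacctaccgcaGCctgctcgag
KRT14: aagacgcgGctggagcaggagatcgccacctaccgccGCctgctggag
KRT17: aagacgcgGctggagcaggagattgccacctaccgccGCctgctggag
KRT16: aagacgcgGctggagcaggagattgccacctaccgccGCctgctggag
KRT5: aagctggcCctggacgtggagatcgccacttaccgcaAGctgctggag
KRT6A: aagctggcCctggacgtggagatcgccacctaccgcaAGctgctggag
KRT6B: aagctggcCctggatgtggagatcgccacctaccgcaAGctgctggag
These stretches lie on the minus strand at chr17:41523791-41523838 (KRT19), chr17:41583249-41583296 (KRT14), chr17:41620673-41620720 (KRT17), chr17:41610345-41610392 (KRT16), chr12:52516651-52516698 (KRT5), chr12:52488342-52488389 (KRT6A) and chr12:52447792-52447839 (KRT6B). The KRT18 stretch lies on the plus strand at chr12:52952278-52952325. Among these 8, members of different types matched at 35 to 37 of the 48 bases, type I members among themselves at 36 to 48, and type II members at 46 to 47. KRT16 and KRT17 were identical over all 48.

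Such likeness bears on how short reads can be assigned. Over the whole coding sequence KRT6A and KRT6B differed at 42 of 1692 bases, and KRT6B and KRT6C, a further near copy, at 25. Of all stretches of 50 coding bases, 52.8% in KRT6A and 62.6% in KRT6B also occurred in a transcript of another gene, mainly KRT6C. For KRT8 this share was 48.4%, mainly in processed pseudogenes such as KRT8P3, and for KRT18 it was 38.8%. It was 24.6% for KRT14, 23.9% for KRT16, 17.2% for KRT17, 5.75% for KRT5, 2.09% for KRT19 and 1.25% for KRT7. With stretches of 100 bases the shares fell to 32.4% for KRT6B, 24.2% for KRT6A and 8.89% for KRT8, and to 0% for KRT18. Read length is not stated in the sources used, and 0 keratin pseudogenes were found by symbol in the table. The annotated spans of KRT8 (chromosome 12, 52897187 to 52949954, minus strand) and KRT18 (chromosome 12, 52948871 to 52952901, plus strand) overlap by 1084 bases. Exons of long KRT8 transcripts cover 375 of the 1562 exonic bases of the principal KRT18 transcript on the opposite strand, and the principal KRT8 transcript covers 0 of them. Whether the counting used strand is not given, so reads from that stretch cannot be told apart.

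Among markers of the labelled cell line, the epithelial genes CDH1 (E-cadherin) and EPCAM lay at 131 to 195 TPM and 91.0 to 182 TPM across the 8 tumors. The estrogen receptor gene ESR1 was at 3.37 to 6.00 TPM, the progesterone receptor gene PGR was listed at 0 in 7 tumors and at 0.02 TPM in Vehicle 4, and ERBB2 was at 77.6 to 130.03 TPM. Markers of skeletal muscle, 17 of 18 above 0, summed to 57.3, 35.4, 50.4 and 738 TPM in NMN 1 to 4, against 500 to 2991 TPM in Vehicle tumors. Fibroblast markers, 9 of 9 above 0 in at least 1 tumor, summed to 121 to 237 TPM under NMN and 192 to 291 TPM under vehicle, with DCN, LUM and THY1 at or near 0 in every tumor. The lists of endothelial and adipocyte markers, 7 genes each, had 5 and 2 members below 1 TPM everywhere. Their sums were 5.40 to 7.32 and 40.3 to 253 TPM in NMN tumors against 3.66 to 5.67 and 33.5 to 133 TPM in Vehicle tumors. The 7 myeloid markers summed to 50.8 to 93.01 TPM under NMN and 53.6 to 76.7 TPM under vehicle. In whole-tumor RNA, fewer cells of a type and less RNA per cell cannot be told apart. Reads of the mouse host can also be part of these sums, since their handling is not stated.

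On average, basal and stress keratins stood above the simple keratins, apart from KRT6B. Averaged over all 8 tumors, the order was KRT5 (3862 TPM), KRT14 (3647 TPM), KRT16 (3411 TPM), KRT17 (2496 TPM), KRT6A (1471 TPM), KRT7 (728 TPM), KRT19 (692 TPM), KRT6B (641 TPM), KRT8 (624 TPM) and KRT18 (570.4 TPM). KRT16 lay above KRT17 and KRT6A above KRT7 in 8 of 8 tumors, and KRT17 above KRT6A in 7. Other neighbors in this order changed places between tumors: KRT5 exceeded KRT14 in 5 of 8, KRT14 exceeded KRT16 in 5, KRT7 exceeded KRT19 in 5, KRT19 exceeded KRT6B in 6, and KRT8 exceeded KRT18 in 4. KRT6B exceeded KRT8 in only 2 of 8, Vehicle 2 and Vehicle 4, although its mean was the higher. Within a tumor, KRT5 ranked between 10th and 47th and KRT14 between 7th and 52nd among all genes of the table by TPM, whereas KRT8 ranked between 155th and 506th. Together the 10 keratins made up 1.62% to 1.99% of all TPM in NMN tumors and 1.37% to 2.77% in Vehicle tumors.

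**Figure D1:**
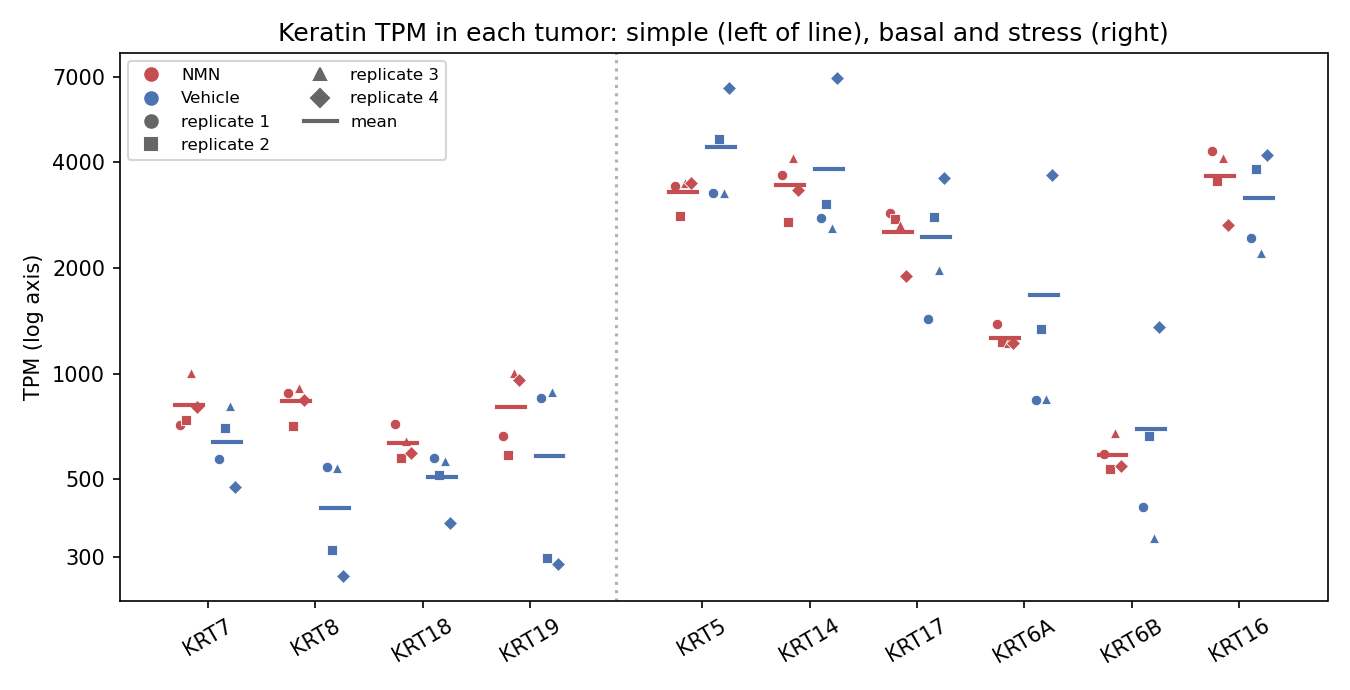
TPM (log axis) of the 10 keratins in each tumor, with NMN tumors (red) left of Vehicle tumors (blue) for each gene, symbols for replicate numbers and bars for group means. KRT8 is the gene in which every NMN tumor lies above every Vehicle tumor, and Vehicle 4 (blue diamonds) is lowest in all 4 simple keratins and highest in 5 of the 6 basal and stress keratins.

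Between the groups, KRT8 differed most among the 10 keratins, with a mean 2.01 times as high in NMN tumors and no overlap. The other 3 simple keratins also had the higher mean in NMN tumors, and the 6 basal and stress keratins had means in both directions. None of the 10 passed limma's test at an adjusted p under 0.05, where 0% of the 13358 genes tested passed and 927 had an unadjusted p under 0.05. At an unadjusted p under 0.05 with the higher mean in NMN tumors stood 3 of the 10 (KRT7, KRT8 and KRT18), against 4.79% of all genes tested. KRT8 was the 1 of 10 whose NMN values all lay above its Vehicle values, against 2.08% of all genes. Each fold change is the limma estimate of NMN over Vehicle for log2(TPM + 1) with its standard error and Benjamini-Hochberg adjusted p, and each level is a mean ± SD over the 4 tumors of a group.

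KRT8, the type II partner of KRT18, was at 879, 707, 909 and 841 TPM in NMN 1 to 4, against 542, 315, 537 and 265 TPM in Vehicle 1 to 4. The lowest NMN tumor therefore lay above the highest Vehicle tumor, and Vehicle 2 and Vehicle 4 were the lowest of all. The mean was 834 ± 88.8 TPM under NMN and 415 ± 145 TPM under vehicle. Its log2 fold change of 1.07 ± 0.21 had a 95% interval reaching from 0.60 to 1.54 (limma adjusted p = 0.221, unadjusted p = 0.000353, exact two-sided permutation p = 0.0286). The last is the smallest value that 4 against 4 tumors allow, and by limma's p KRT8 ranked 21st of 13358 genes. NMN 4, in which the summed muscle markers lay within the Vehicle range, had a KRT8 level inside the range of NMN 1 to 3. Without NMN 4 the log2 fold change was 1.06 ± 0.24, and without Vehicle 4 it was 0.88 ± 0.18. The part of the muscle markers in the KRT8 difference was not tested.

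KRT18, the type I partner encoded next to KRT8, was at 721, 574, 645 and 593 TPM in NMN 1 to 4, against 576, 516, 562 and 376 TPM in Vehicle 1 to 4. The groups touched at NMN 2 and Vehicle 1, which differed by less than 3 TPM. The log2 fold change was 0.33 ± 0.14 (limma, p = 0.0332, adjusted p = 0.651, exact permutation p = 0.0571). It was 0.20 without Vehicle 4. KRT7, a type II keratin of ducts and many glandular tumors, was at 715, 739, 1008 and 806 TPM in NMN 1 to 4, against 573, 701, 809 and 477 TPM in Vehicle 1 to 4. Vehicle 3 lay within the NMN range, and the log2 fold change was 0.37 ± 0.16 (limma, p = 0.0461, adjusted p = 0.709, exact permutation p = 0.143). This estimate was 0.23 without Vehicle 4.

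KRT19, the smallest type I keratin, was at 664, 586, 1005 and 959.8 TPM in NMN 1 to 4, against 854, 299, 884 and 288 TPM in Vehicle 1 to 4. Its Vehicle values fell into a high pair (Vehicle 1 and 3) inside the NMN range and a low pair (Vehicle 2 and 4) under it. The log2 fold change was 0.63 ± 0.36 (adjusted p = 0.836), and 0.36 without Vehicle 4. Summed over the 4 simple keratins, the level was 2978, 2606, 3567 and 3199 TPM in NMN 1 to 4, against 2545, 1830.5, 2793 and 1406 TPM in Vehicle 1 to 4. NMN 2 and Vehicle 3 made the groups overlap.

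**Figure D2:**
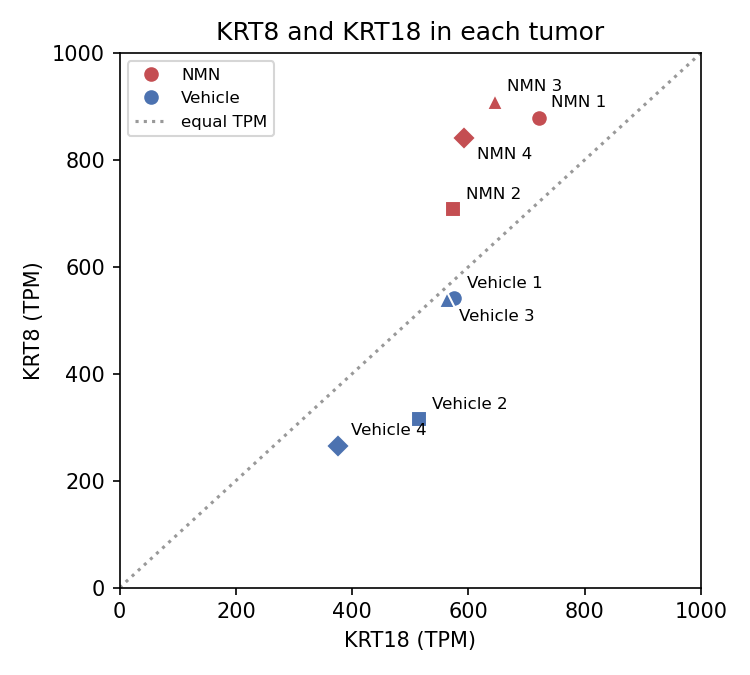
KRT8 (vertical) against KRT18 (horizontal) in TPM, 1 point per tumor, NMN red and Vehicle blue, with a dotted line at equal TPM. All 4 NMN tumors lie above the line, at 1.22 to 1.42 KRT8 per KRT18, and all 4 Vehicle tumors below it, at 0.610 to 0.955.

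The partners KRT8 and KRT18 moved together across tumors but not in a fixed proportion. Pearson's r of log2(TPM + 1) over the 8 tumors was 0.89 and Spearman's rho 0.95 (exact permutation p = 2.5e-04 and 0.0011, Benjamini-Hochberg adjusted over the 45 pairs of members 0.0112 and 0.0257). Without Vehicle 2 and Vehicle 4, the tumors farthest from the KRT8 median, r was 0.73. Correlations between members take both groups together unless stated, so a difference between the groups enters them. With each tumor taken as its deviation from its group mean, r of KRT8 with KRT18 was 0.83. The ratio of KRT8 to KRT18 was 1.22, 1.23, 1.41 and 1.42 in NMN 1 to 4, against 0.940, 0.610, 0.955 and 0.705 in Vehicle 1 to 4. The groups did not overlap, and a ratio over chosen members was given no test. KRT7 over KRT19 ran from 0.840 to 1.26 in NMN tumors and from 0.671 to 2.35 in Vehicle tumors, with NMN inside the Vehicle range. For that pair r was 0.64 and rho 0.81 (exact permutation p = 0.0819 and 0.0218, adjusted 0.147 and 0.109). Without Vehicle 4 r was 0.36, and without Vehicle 4 and NMN 3, the tumors farthest from the KRT7 median, it was 0.13. Leaving out the extremes of KRT7 narrows its range, so whether the relation rested on those tumors cannot be told. On deviations from the group means, r of KRT7 with KRT19 was 0.51.

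KRT5, the type II keratin of the basal layer, was at 3414, 2817, 3489.7 and 3485 TPM in NMN 1 to 4, against 3276, 4648, 3279.8 and 6488 TPM in Vehicle 1 to 4. Vehicle 2 and Vehicle 4 lay above all other tumors, and Vehicle 1 and 3 within the NMN range. The log2 fold change was -0.37 ± 0.20 (adjusted p = 0.815), and -0.16 without Vehicle 4. KRT14, its type I partner, was at 3668, 2704, 4123 and 3329.98 TPM in NMN 1 to 4, against 2767, 3033, 2602.6 and 6953 TPM in Vehicle 1 to 4. Vehicle 4 lay far above all other tumors, Vehicle 1 and 2 lay in the lower part of the NMN range, and Vehicle 3 below it. The log2 fold change was -0.04 ± 0.27 (adjusted p = 0.996), and 0.29 ± 0.14 without Vehicle 4, in the opposite direction.

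The stress keratins overlapped between the groups, with Vehicle 4 the highest tumor in KRT17, KRT6A and KRT6B. KRT16, a type I keratin of wounded and hyperproliferative epidermis, was at 4304, 3527, 4123 and 2655 TPM in NMN 1 to 4, against 2429, 3829, 2209.9 and 4208 TPM in Vehicle 1 to 4. KRT17, a type I keratin of basal and appendage cells, was at 2866, 2751, 2643 and 1898 TPM in NMN 1 to 4, against 1433, 2789.6, 1974 and 3613 TPM in Vehicle 1 to 4. In both genes NMN 4, Vehicle 1 and Vehicle 3 were the 3 lowest tumors. KRT6A, a type II partner of KRT16, was at 1383, 1230.1, 1226 and 1222 TPM in NMN 1 to 4, against 841, 1345, 848 and 3672 TPM in Vehicle 1 to 4. KRT6B, its near copy, was at 591, 535, 679 and 546 TPM in NMN 1 to 4, against 418, 664, 340.02 and 1355 TPM in Vehicle 1 to 4. NMN values of both genes lay close together and inside the wide Vehicle range. The log2 fold changes of KRT16, KRT17, KRT6A and KRT6B were 0.24 ± 0.22, 0.12 ± 0.25, -0.12 ± 0.37 and -0.03 ± 0.33 (adjusted p from 0.937 to 0.996). Without Vehicle 4 all 4 were positive, with 0.36 for KRT6A and 0.36 for KRT6B, and without Vehicle 1 KRT17 was at -0.11. Since reads of KRT6A, KRT6B and KRT6C can be assigned to each other, their sum was also taken. It was 2359, 2069, 2243 and 2106 TPM in NMN 1 to 4, against 1574, 2667, 1366 and 5963 TPM in Vehicle 1 to 4, and the NMN tumors again lay inside the Vehicle range.

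**Figure D3:**
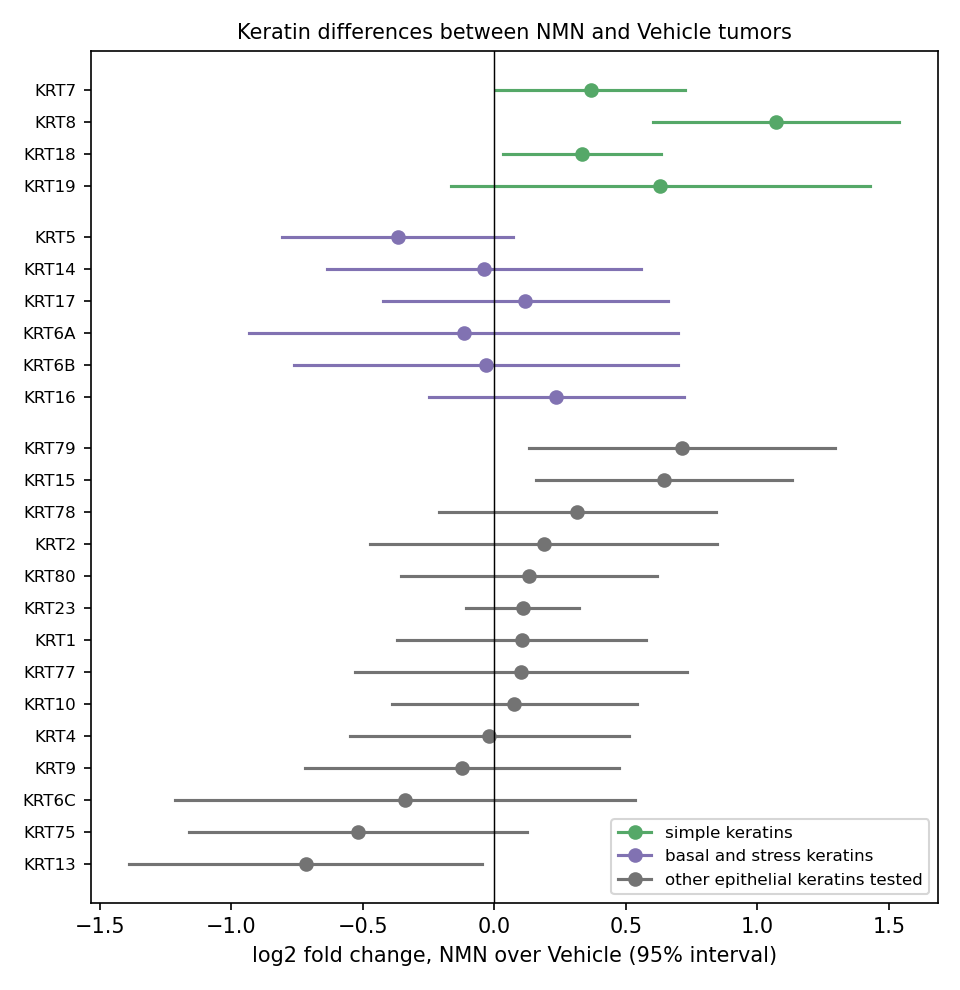
Log2 fold change of NMN over Vehicle with its 95% interval for the simple keratins, the basal and stress keratins and the 14 other epithelial keratins that were tested. The interval of KRT8 runs from 0.60 to 1.54, and intervals of all 6 basal and stress keratins cross 0.

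The members' values lay closer together among NMN than among Vehicle tumors, as a description without a test. The coefficient of variation ran from 6.21% (KRT6A) to 26.1% (KRT19) in NMN tumors and from 17.98% (KRT18) to 80.6% (KRT6A) in Vehicle tumors, and it was the larger in Vehicle for 10 of 10 members. Over all genes tested it was larger in Vehicle for 56.3%. Without Vehicle 4 the members' coefficient of variation ran from 5.74% to 48.5% in Vehicle tumors. It was then larger in Vehicle for 8 of 10 members, with 49.03% of all genes.

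Vehicle 4 was lowest in all 4 simple keratins and highest in KRT5, KRT14, KRT17, KRT6A and KRT6B. Not every basal keratin was high in it: KRT15, a keratin of basal and progenitor cells, was at 824 TPM in Vehicle 4, the lowest of the 8 tumors, where the other 7 lay between 1409.6 and 2748 TPM. Summed over the 6 basal and stress keratins, the level was 16227, 13565, 16285 and 13136 TPM in NMN 1 to 4, against 11163, 16308, 11255 and 26289 TPM in Vehicle 1 to 4. Basal and stress over simple keratins came to 5.45, 5.20, 4.57 and 4.11 in NMN 1 to 4, against 4.39, 8.91, 4.03 and 18.7 in Vehicle 1 to 4. Vehicle 2 and Vehicle 4 thus had the highest ratios, and Vehicle 1 and 3 lay within or just below the NMN range. The same tumor stood out outside the keratins: Vehicle 4 was highest in 13 of 14 basal genes that are not keratins and lowest in 12 of 17 tested luminal genes. Among these, the hemidesmosome gene COL17A1 was at 109 TPM in Vehicle 4 and 28.6 to 35.9 TPM in the other 7 tumors, and the luminal factor gene ELF3 at 64.01 TPM and 113 to 310.4 TPM. Over all tested genes Vehicle 4 was highest in 2251 and lowest in 2724 of 13358. Its median correlation with the other libraries was 0.967, the lowest of the 8, where the others ran from 0.973 to 0.980.

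All 24 pairs of a simple with a basal or stress keratin had a negative r over the 8 tumors, with a median of -0.53. The pairs reuse the same keratins and tumors, so they are not separate observations. The other pairs were negative only with Vehicle 4 included, and leaving it out also narrows the range of most members. Without Vehicle 4 the median was 0.21 and 8 of the 24 were negative. The 8 were KRT5 with each simple keratin and KRT19 with KRT17, KRT6A, KRT6B and KRT16. For KRT5 r then ran from -0.61 with KRT8 to -0.01 with KRT7, and for those KRT19 pairs from -0.52 to -0.39. Leaving out any tumor other than Vehicle 4 kept 22 to 24 of the pairs negative. No such pair passed at an adjusted p under 0.05, and the pair with the lowest r was KRT18 with KRT5, at r = -0.81 and rho = -0.31 (exact permutation p = 0.0304 and 0.462, adjusted 0.0898 and 0.742, r = -0.49 without Vehicle 4 and NMN 1). Among the 6 simple pairs r ran from 0.64 to 0.89, and among the 15 basal and stress pairs from 0.44 to 0.96, with medians of 0.72 and 0.79. Without Vehicle 4 these ranges were 0.26 to 0.82 and 0.21 to 0.90, with medians of 0.47 and 0.67. Of these pairs KRT8 with KRT18, KRT14 with KRT6B and KRT6A with KRT6B passed by Pearson's r. KRT14 with KRT6B reached r = 0.92 and rho = 0.90 (exact permutation p = 0.0022 and 0.0046, adjusted 0.0324 and 0.0685), and r was 0.66 without Vehicle 4 and NMN 3. For KRT6A with KRT6B r was 0.96 and rho 0.76 (exact permutation p = 0.0018 and 0.0368, adjusted 0.0324 and 0.1504), r without Vehicle 4 and Vehicle 1 was 0.91, and the 2 genes share most of their sequence. KRT17 with KRT6A passed by rho alone, at r = 0.79 and rho = 0.98 (exact permutation p = 0.0223 and 4.0e-04, adjusted 0.0848 and 0.0179, r = 0.91 without Vehicle 1 and NMN 4).

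**Figure D4:**
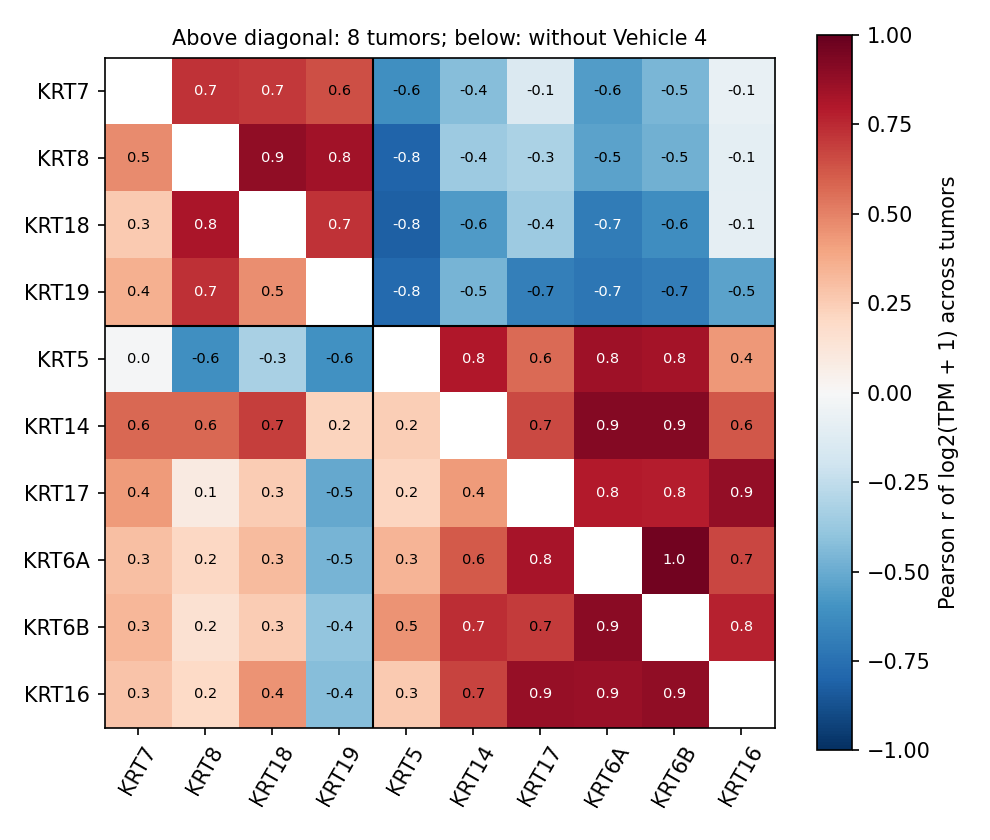
Pearson's r of log2(TPM + 1) between each pair of keratins across tumors, with all 8 tumors above the diagonal and without Vehicle 4 below it; black lines part simple from basal and stress keratins. The upper right block, simple against basal and stress, is negative throughout, and the lower left block holds 8 negative values of 24.

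For the basal partners KRT5 and KRT14, whose pair did not pass, r over 8 tumors was 0.80 and rho 0.76 (exact permutation p = 0.0390 and 0.0368, adjusted 0.0975 and 0.1504), and it was 0.66 without Vehicle 4 and Vehicle 2, and 0.25 without Vehicle 4 alone. KRT5 over KRT14 was 0.931, 1.04, 0.846 and 1.05 in NMN 1 to 4, against 1.18, 1.53, 1.26 and 0.933 in Vehicle 1 to 4. Vehicle 4 lay inside the NMN range and the other Vehicle tumors above it. KRT6A with KRT16 had r = 0.67 and rho = 0.88 (exact permutation p = 0.0387 and 0.0072, adjusted 0.0975 and 0.0815), and r was 0.84 without Vehicle 4 and Vehicle 1. KRT6B with KRT17 had r = 0.79 and rho = 0.69 (exact permutation p = 0.0226 and 0.0694, adjusted 0.0848 and 0.208), and r was 0.83 without Vehicle 4 and Vehicle 3. Ranked by r among the 13357 other tested genes, partners were not the closest matches of any member: KRT8 was 115th for KRT18, KRT18 was 199th for KRT8, and KRT14 was 319th for KRT5. On deviations from the group means, r was 0.91 for KRT5 with KRT14, 0.74 for KRT6A with KRT16 and 0.80 for KRT6B with KRT17.

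Type II over type I keratin differed between tumors in the basal and stress group. The sum of KRT5, KRT6A and KRT6B over that of KRT14, KRT16 and KRT17 was 0.497, 0.510, 0.495 and 0.666 in NMN 1 to 4, against 0.684, 0.690, 0.658 and 0.780 in Vehicle 1 to 4. NMN 1, 2 and 3 lay below every Vehicle tumor and NMN 4 lay among them, the same division as in the muscle marker sums given above. The part of the muscle markers in this ratio was not tested. For the simple keratins the ratio of KRT7 and KRT8 to KRT18 and KRT19 was 1.06 to 1.25 in NMN tumors and 0.779 to 1.25 in Vehicle tumors. Across the 29 epithelial keratins listed, 16 of type II and 13 of type I, it was 0.544 to 0.684 in NMN tumors and 0.609 to 0.795 in Vehicle tumors, and the groups overlapped.

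The stress keratins were high in the same tumors as genes of the cornified layer, the dead outer sheet of stratified epithelium. KRT6A, KRT6B, KRT16 and KRT17 together came to 9145, 8044, 8672 and 6321 TPM in NMN 1 to 4, against 5121, 8627, 5373 and 12848 TPM in Vehicle 1 to 4. The 17 cornified layer genes in the table summed to 30581, 32119, 27192 and 14816 TPM in NMN 1 to 4, against 15812, 32378, 15584 and 29881 TPM in Vehicle 1 to 4. The same 3 tumors, NMN 4, Vehicle 1 and Vehicle 3, were the lowest in either sum. The cornified envelope precursor gene SPRR1B was at 4671, 3579, 3037 and 1499.7 TPM in NMN 1 to 4, against 1477, 3595, 1793 and 5079 TPM in Vehicle 1 to 4. Between the groups, 13 of the 17 had a positive log2 fold change and 0 passed, with a median of 0.13, beside 0.00 over all genes tested. KRTDAP, a keratinocyte differentiation gene, and FLG, which encodes filaggrin, had the smallest p, at 0.56 ± 0.22 (adjusted p = 0.624) and 0.45 ± 0.20 (adjusted p = 0.687) on the log2 scale.

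**Figure D5:**
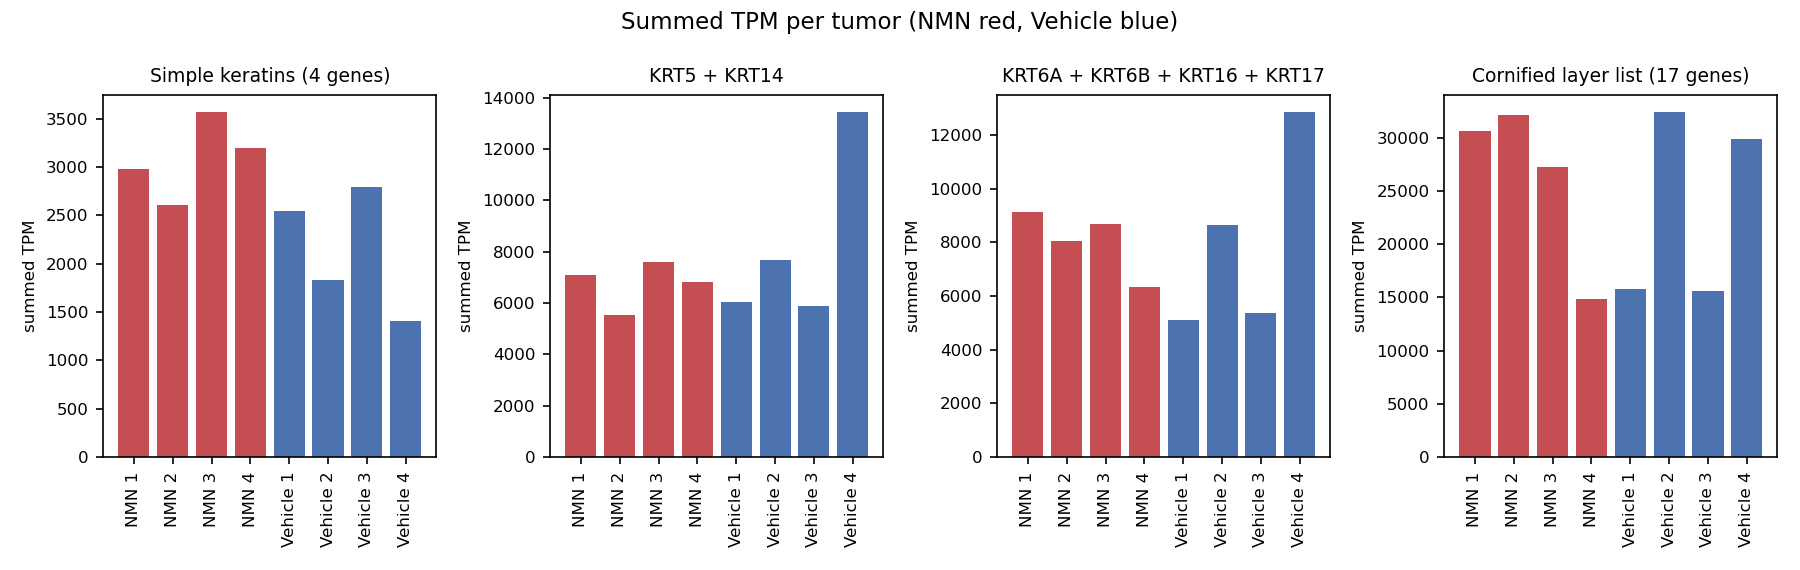
Summed TPM in each tumor, NMN red and Vehicle blue, for the 4 simple keratins, for KRT5 with KRT14, for the 4 stress keratins and for the 17 cornified layer genes. Stress keratins and cornified layer genes are lowest in NMN 4, Vehicle 1 and Vehicle 3, and simple keratins are lowest in Vehicle 2 and Vehicle 4.

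Of the other epithelial keratins, KRT1, KRT10, KRT15 and KRT13 had levels within the members' range, and the remaining ones averaged between 0.041 TPM (KRT76) and 431 TPM (KRT6C) over the 8 tumors. KRT1 and KRT10, the pair of the suprabasal epidermis, were at 2466 ± 882 and 2695 ± 747 TPM under NMN and at 2200.02 ± 281 and 2503 ± 491 TPM under vehicle. Of 19 other epithelial keratins, 14 were tested, the log2 fold change was positive in 9 and negative in 5, and 0 passed (median log2 fold change 0.10). KRT15 was at 2124 ± 454 TPM under NMN and 1391 ± 412 TPM under vehicle, a log2 fold change of 0.64 ± 0.22 (adjusted p = 0.500). KRT79 and KRT13, a keratin of moist mucosa, differed by 0.71 ± 0.27 (adjusted p = 0.576) and -0.72 ± 0.31 (adjusted p = 0.682) on the log2 scale. Of 25 keratins of hair and inner root sheath, 23 were in the table and 14 of those stayed below 1 TPM in every tumor.

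Genes around the keratin network had means on both sides, and 0 passed in any list. Of 14 linker and partner genes, which tie keratins to desmosomes and hemidesmosomes or bind them, the NMN mean was the lower in 12, and the median was -0.15. HSPB1, a small heat shock protein that binds keratins, was at 5651 ± 642 TPM under NMN and 7031 ± 963 TPM under vehicle, a log2 fold change of -0.31 ± 0.13 (adjusted p = 0.687). DST, a plakin of hemidesmosomes, had -0.39 ± 0.21 (adjusted p = 0.812). Vehicle 4 was the highest tumor in 9 of the 14. Of 14 basal genes that are not keratins in 13 the NMN mean was the lower, and the median was -0.23. NGFR, a receptor of basal cells, had -0.69 ± 0.22, and FOXC1, a transcription factor of basal-like cancers, 0.45 ± 0.16 (adjusted p = 0.441 and 0.519). TP63, which encodes the master regulator of basal epithelium, was at 70.3 ± 17.2 TPM under NMN and 92.8 ± 23.9 TPM under vehicle. Of 17 tested luminal genes that are not keratins, the NMN mean was higher in 10 and lower in 7 (median 0.05). Log2 fold changes were 0.90 ± 0.28 for ELF3 (adjusted p = 0.426) and 0.43 ± 0.16 for EPCAM (adjusted p = 0.553). Among 9 tested other intermediate filament genes, VIM, the mesenchymal filament, was at 131 ± 24.3 TPM under NMN and 134 ± 21.4 TPM under vehicle, while DES, the muscle filament, was at 0.55 to 0.67 TPM in NMN 1 to 3, 105 TPM in NMN 4 and 65.0 to 251 TPM in Vehicle tumors.

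The genes whose pattern over the 8 tumors was most like that of a member, by Pearson's r of log2(TPM + 1), differed from keratin to keratin. For KRT8 they included FUT9 and PHYH (r = 0.99 and 0.99), for KRT18 H2BC18 and TMEM25 (0.98 and 0.97), for KRT7 PRSS22, TRPV4 and MACROD1 (0.96, 0.95 and 0.95), and for KRT19 CHI3L2, IL17RB and ERICH5 (all 0.99). FUT9 was at or below a mean of 1.44 TPM in both groups, and GRIP1 and DRGX, named below for KRT6A, at or below 1.56 TPM. KRT5 was followed most closely by WARS1, C1S and PLEKHF1 (0.97, 0.97 and 0.96), and KRT14 by OTUB2, RHBDF2 and BLNK (0.97, 0.96 and 0.95). For KRT17 the closest were SLC5A1, UPP1 and IL1A (all 0.99), for KRT6A SPRR2B, GRIP1 and DRGX (0.98, 0.98 and 0.97), for KRT6B CDS1, LAYN and BLNK (0.99, 0.98 and 0.98), and for KRT16 DCUN1D3, IL36RN and GJB2 (0.97, 0.96 and 0.94). These are the highest of 13357 values over 8 points that share libraries, and are given as a description.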

How the data were processed

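The authors deposited 1 table of TPM per human gene for the 8 tumors, with the unit per the file headers and each library summing to about 1000000. Per the submitters' processing notes, RSEM 1.2.8, Bowtie2 2.2.5, HISAT2 2.1.0 and the build GRCh38.p13 were used, in roles that are not stated. RNA had an integrity number above 8.5, per the labels. TPM does not keep depth, which is therefore unknown here, and no interval that needs it was computed.

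From these values, genes with at least 1 TPM in at least 4 of 8 tumors (13358) were tested with limma 3.58.1 in R 4.3.3 on log2(TPM + 1), with a mean-variance trend, group as the only term, two-sided, Benjamini-Hochberg adjusted over all genes at 0.05, after a check on simulated data. Single genes were also compared by exact permutation (70 assignments). Sums, ratios and gene lists were described without a test. Alternatives were pseudocounts of 0.1 and 5, median-of-ratios scaling, no filter or 5 TPM in place of 1, quantile normalization, no trend, a replicate block and each tumor left out. Coding sequences and positions came from GENCODE 29, using the principal transcript. All 10 keratins are always named. From each list up to 3 genes with the smallest p are named, plus any needed to describe it, and for each member the 3 genes most like it, of which 1 each for KRT8 and KRT18 is not reported here, nor are 2 of the 10 rod-end sequences. Members and lists were chosen with earlier results of these data known.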

Additional observations from a re-analysis of the deposited data

Results flagged for a closer look

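In 6 of 56 groups of 4 tumors examined, over the 10 keratins and their sums and ratios, the highest or lowest tumor stood far from the others by Dixon's test, which chance does in about 1 in 20 groups. The sums and ratios reuse the values of the same keratins, so these groups are not separate tests and no excess can be read from the count. KRT5 in NMN 2 was the lowest NMN value, at 2817 TPM. KRT6A in NMN 1 was the highest NMN value, at 1383 TPM, where the other 3 lay within 9 TPM of each other. KRT14 in Vehicle 4 was the highest Vehicle value, at 6953 TPM, and KRT6A over KRT16 in that tumor was also the highest, at 0.873. The ratio of type II to type I keratins in NMN 4 was above that of NMN 1 to 3, at 0.731 over the 10 members and 0.666 over the basal and stress keratins.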

How the results depend on the processing

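No member passed under any of the 16 alternatives run. KRT8 kept its direction in all of them, with log2 fold changes from 0.88 (without Vehicle 4) to 1.22 (without Vehicle 1) and adjusted p-values from 0.120 to 0.757. With 1 tumor left out the log2 fold change ran from -0.18 to 0.29 for KRT14, from -0.11 to 0.33 for KRT17, from -0.35 to 0.36 for KRT6A and from -0.30 to 0.36 for KRT6B, so these 4 changed sign, and the cause was not tested. KRT7, KRT18, KRT19, KRT5 and KRT16 kept their sign. The unadjusted limma p of KRT7 and KRT18 crossed 0.05 between settings, while that of KRT8 stayed under it. For KRT7 and KRT18 it was 0.130 and 0.0892 without Vehicle 4, and 0.0172 and 0.0156 with the replicate block. Over the whole table, leaving out 1 tumor gave 0 to 54 called genes, the 54 without NMN 4 and 1 without Vehicle 3, none of them a member. With the replicate block 2 genes were called, against 0 without it, and neither was a member. Same-numbered tumors of the 2 groups correlated at -0.12 to 0.03 in their deviations from the group means. No NMN tumor correlated best with the Vehicle tumor of its own number. Such correlations cannot show whether same-numbered tumors shared anything beyond the number. Sums of the basal and stress keratins had a log2 difference of -0.05, NMN minus Vehicle, and of 0.21 without Vehicle 4. Depth is not known, so no limit on low values can be given.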
